A study of Homo sapiens with 6 samples.

Results

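The BAF and Polycomb chromatin complexes were examined through 43 genes that encode their subunits, 25 of BAF and 18 of Polycomb, in the SU-CCS-1 cell line with and without knockdown of EWSR1::ATF1 (EA1), the fusion oncoprotein of clear cell sarcoma. The members were taken by gene symbol, and all 43 were among the 18118 genes of the deposited counts and among the 14571 genes tested. The line is an established one that carries the fusion, so all conditions share it. Transfection lasted 48 h and used 5 pmol of siRNA. Of the 6 libraries, 2 received the negative control siRNA (siNeg1), 2 an siRNA against EA1 named siEA1-1 in the labels, and 2 another named siEA1-2. The knockdown model is therefore 1 cell line at 1 time point. The labels do not say whether same-condition libraries came from separate cultures, so p values measure the spread between these libraries, which may be technical.

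The targeted gene was read through its fusion partners, whose counts include reads of the unrearranged alleles. ATF1 measured 82.0 and 87.2 CPM in control, 21.1 and 20.2 with siEA1-1, and 21.7 and 22.3 with siEA1-2. Both control libraries lay above all 4 knockdown libraries (log2FC 1.99 ± 0.10, edgeR adjusted p = 9.7e-08). EWSR1 was not called (log2FC 0.08 ± 0.10, edgeR adjusted p = 0.538). Gene counts do not separate the fusion transcript from unrearranged ATF1, so how far each of them fell cannot be told apart. The library totals ran from 5942808 to 7599305 counts, and 3 counts, taken as the floor, equal 0.385 to 0.533 CPM (counts scaled to the library total, normalised by TMM), which covers counting error only. Most members were counted well above that floor. The median of their mean counts was 386.5, against 167 over all genes tested, and 38 of 43 had a mean of 100 counts or more. Mitochondrial genes took 3.96% to 5.33% of the counts. Of the clear cell sarcoma markers, SOX10 measured 784 and 866 CPM in control, 845 and 916 with siEA1-1, and 977 and 952 with siEA1-2, and MITF, PMEL and S100B were present in every library. MLANA, another pigment cell marker, had 4 and 0 counts in the control libraries. All of these but SOX10 rose with knockdown. Summed levels of other cell types were at most 0.896 CPM for leukocyte markers, 2.94 CPM for endothelial markers and 2.57 CPM for epithelial markers. These sums rest on the listed genes present in the deposited counts: 1 of 6 leukocyte, 2 of 4 endothelial and 1 of 5 epithelial genes. The fibroblast list summed to 2.69 and 3.44 CPM in control and to 8.87 to 22.9 CPM in knockdown, through LUM and COL1A1, the 2 of its 7 genes with counts in the table. Its part in the results below was not tested.

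BAF complexes (the mammalian SWI/SNF family) use the ATPase SMARCA4 or SMARCA2 to slide or evict nucleosomes and so open chromatin. They come in a canonical form with ARID1A or ARID1B and a DPF subunit, a PBAF form with PBRM1, ARID2, BRD7 and PHF10, and a non-canonical form with BRD9. Polycomb complexes oppose them at many developmental genes: PRC2 methylates histone H3 at lysine 27 through EZH2 or EZH1, and PRC1 ubiquitinates histone H2A through RNF2 or RING1 and compacts chromatin. BAF subunits are themselves altered in several sarcomas, by loss of SMARCB1 or by fusion of SS18.

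The first comparison asked how the members differed between control and the mean of both EA1 siRNAs. As in the study, a positive log2FC means higher expression in control, so that such a gene fell with knockdown. A gene was called where the quasi-likelihood test of edgeR gave an adjusted p under 0.05, the adjustment (Benjamini-Hochberg) covering all genes tested. Values after ± are standard errors. Of the 25 BAF genes, 5 fell with knockdown (BRD9, PHF10, ACTL6A, BRD7 and SMARCC1) and 5 rose (DPF3, PBRM1, SS18L1, ARID1B and SS18), which is 20% in each direction. Over all genes tested, 22.1% were higher and 21.5% lower in control, so the BAF shares lay near the background. Of the 18 Polycomb genes, 5 fell (EZH2, SUZ12, RBBP7, RBBP4 and CBX6) and 2 rose (EZH1 and RING1), 27.8% and 11.1%. The 7 PRC2 genes gave 4 that fell and 1 that rose, whereas the 11 PRC1 genes gave 1 of each. With 7 genes a share moves by much for each gene, and the classes were not tested against each other because subunits are not replicates of a condition. Of the 17 called members, 11 were called in every other setting tried, and the libraries or settings that end the calls of the other 6 are named with them. The BAF genes that fell numbered 3 without siNeg1 replicate 1 or 2. With the 4 knockdown libraries fitted as 1 condition, the Polycomb genes that fell numbered 2, EZH2 and SUZ12, and RBBP4, RBBP7 and CBX6 were not called. They numbered 3 without siNeg1 replicate 1, and 1 rose in place of 2 without any library but siEA1-2 replicate 2.

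The median log2FC was -0.06 over BAF genes, 0.10 over Polycomb genes, 0.35 over PRC2 and 0.05 over PRC1, beside -0.01 over all genes tested. The median size of the change without its sign was 0.22 for BAF and 0.27 for Polycomb, beside 0.41 over all genes tested, which were also counted less deeply. Of the 15 BAF genes that were not called, 11 had a 95% confidence interval of log2FC within ±0.5, and the 4 with wider intervals were SMARCD3, BCL7B, BCL7C and DPF1. Of the 11 Polycomb genes not called, 7 had such a narrow interval, the others being CBX2, CBX7, CBX8 and PHC2.

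**Figure D1:**
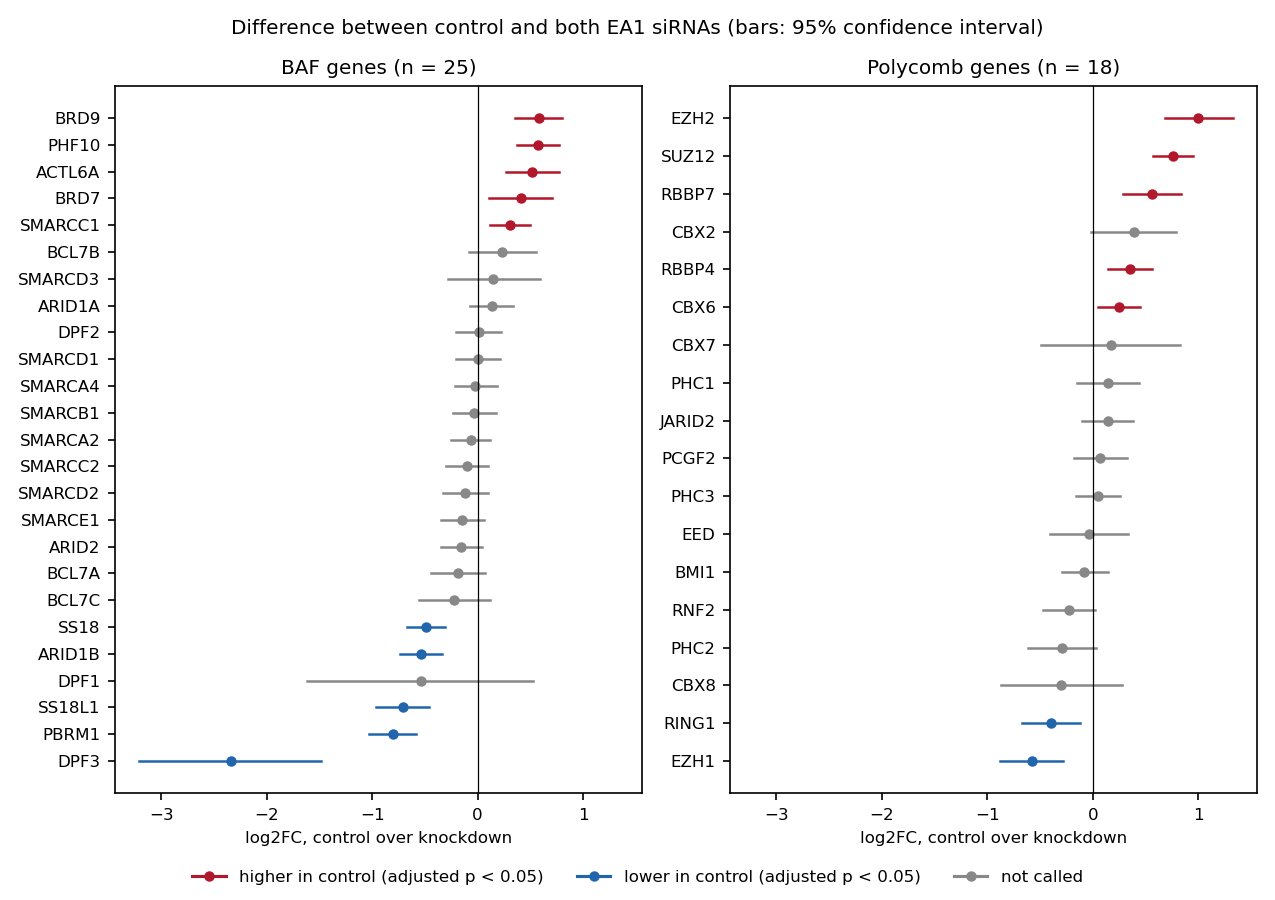
Difference between control and both EA1 siRNAs for each of the 25 BAF genes (left) and 18 Polycomb genes (right). Points are log2FC, positive where control was higher, bars are 95% confidence intervals, and colours mark genes called at an adjusted p under 0.05. EZH2 stands at the top of the Polycomb genes at 1.00 and DPF3 at the bottom of the BAF genes at -2.34, while most intervals span 0.

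PRC2 held the 2 largest falls among the members, EZH2 and SUZ12. EZH2 (chr7:148807257-148884321 on hg38, minus strand), the main methyltransferase in dividing cells, measured 67.8 and 78.7 CPM in control, 32.2 and 32.9 with siEA1-1, and 32.0 and 49.7 with siEA1-2. All 4 knockdown libraries were below both control libraries, and siEA1-2 replicate 2 was the highest of the 4. Control was 2.00-fold higher (log2FC 1.00 ± 0.15, edgeR adjusted p = 0.00021). SUZ12 (chr17:31937007-32001038, plus strand), the scaffold on which the complex assembles, measured 122 and 132 CPM in control, 62.4 and 56.9 with siEA1-1, and 96.1 and 92.6 with siEA1-2. The siEA1-1 libraries were the lowest, the siEA1-2 libraries lay between, and no library of 1 condition reached another condition (log2FC 0.76 ± 0.09, edgeR adjusted p = 3.32e-05). EED, which reads the methylated lysine and stimulates the enzyme, measured 16.1 and 14.5 CPM in control, 14.5 and 16.6 with siEA1-1, and 17.4 and 14.7 with siEA1-2. Its libraries overlapped in all conditions and the difference was log2FC -0.04 ± 0.17, edgeR adjusted p = 0.861, with a 95% interval of -0.41 to 0.33.

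EZH1, the paralog of EZH2 that is typical of resting cells, moved the other way. The gene (chr17:42700275-42745049, minus strand) measured 18.8 and 20.5 CPM in control, 29.7 and 32.0 with siEA1-1, and 28.6 and 27.5 with siEA1-2. All knockdown libraries were above both control libraries (log2FC -0.58 ± 0.14, edgeR adjusted p = 0.00511). Per kilobase of transcript, which allows levels of different genes to be compared, the ratio of EZH2 to EZH1 was 6.29 and 6.70 in the control libraries, 1.90 and 1.79 with siEA1-1 and 1.95 and 3.16 with siEA1-2. EZH2 therefore stayed above EZH1 in every library, by a smaller factor in each knockdown library than in either control.

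The histone-binding subunits RBBP7 and RBBP4, which PRC2 shares with the NuRD, SIN3 and chromatin assembly complexes, both fell with the siRNAs averaged. Taken singly, RBBP7 was called with siEA1-1 only (log2FC 0.88, against 0.24 with siEA1-2). RBBP4 was called with siEA1-2 only (log2FC 0.58, against 0.12 with siEA1-1). RBBP7 (chrX:16839283-16870362, minus strand) measured 147 and 140 CPM in control, 91.7 and 63.4 with siEA1-1, and 127 and 116 with siEA1-2. The 4 knockdown libraries were below control, the siEA1-1 libraries most of all (log2FC 0.56 ± 0.12, edgeR adjusted p = 0.0032). RBBP4 measured 120 and 107 CPM in control, 113 and 96.1 with siEA1-1, and 74.3 and 78.3 with siEA1-2. Its siEA1-1 replicate 1 lay between the control libraries and the other 3 knockdown libraries below both, those of siEA1-2 lowest (log2FC 0.35 ± 0.10, edgeR adjusted p = 0.0124). The RBBP4 call was lost without siNeg1 replicate 1 (log2FC 0.26, edgeR adjusted p = 0.157) and with the 4 knockdown libraries as 1 condition (adjusted p = 0.124), and that pooling also lost RBBP7 (adjusted p = 0.0716). JARID2, an accessory subunit that helps PRC2 find its targets, was not called (log2FC 0.14 ± 0.11, edgeR adjusted p = 0.342; 95% interval -0.10 to 0.38).

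A list of 16 replication and division genes was read beside the PRC2 genes, of which EZH1 rose and EED and JARID2 were not called. All 16 fell with knockdown, with a median log2FC of 1.22, beside 22.1% of all genes tested that fell. The list was chosen with earlier results of these data known, so its uniform fall is a description and not a test. Their summed level was 2870 and 2979 CPM in control, 1171 and 1146 with siEA1-1, and 1485 and 1855 with siEA1-2. The part of cell division in the PRC2 differences was not tested, and in bulk RNA fewer dividing cells and less RNA per cell cannot be told apart.

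The starts of 4 PRC2 genes are shown because they had the largest differences of that complex, 3 falling and 1 rising, and that of PBRM1 because it had the largest difference of BAF after DPF3. Each is 280 bases from RefSeq (GRCh38.p14), 5′ to 3′ on the gene's strand, from 250 bases before the annotated start to 30 after. EZH2, RBBP7 and PBRM1 have 2 such windows each, and the one with more matches, or the more upstream, is shown. EZH2 is at chr7:148884262-148884541 (minus strand), SUZ12 at chr17:31936757-31937036 (plus), RBBP7 at chrX:16870333-16870612 (minus), EZH1 at chr17:42745011-42745290 (minus) and PBRM1 at chr3:52685884-52686163 (minus). Capitals mark matches, on either strand, to TTTNNCGC, a form of the E2F site, and to TGACG, the short site within the cAMP response element that ATF1 binds.
EZH2: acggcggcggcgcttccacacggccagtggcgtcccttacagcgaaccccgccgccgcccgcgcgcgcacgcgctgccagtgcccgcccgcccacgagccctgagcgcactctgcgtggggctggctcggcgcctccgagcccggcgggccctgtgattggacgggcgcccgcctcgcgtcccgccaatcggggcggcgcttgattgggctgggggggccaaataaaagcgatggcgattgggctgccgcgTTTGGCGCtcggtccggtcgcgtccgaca
SUZ12: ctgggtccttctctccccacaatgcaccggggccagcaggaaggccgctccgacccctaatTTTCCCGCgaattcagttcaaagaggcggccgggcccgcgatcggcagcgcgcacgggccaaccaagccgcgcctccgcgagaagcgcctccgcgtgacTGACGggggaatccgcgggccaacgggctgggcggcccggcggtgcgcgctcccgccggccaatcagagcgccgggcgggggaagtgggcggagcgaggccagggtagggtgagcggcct
RBBP7: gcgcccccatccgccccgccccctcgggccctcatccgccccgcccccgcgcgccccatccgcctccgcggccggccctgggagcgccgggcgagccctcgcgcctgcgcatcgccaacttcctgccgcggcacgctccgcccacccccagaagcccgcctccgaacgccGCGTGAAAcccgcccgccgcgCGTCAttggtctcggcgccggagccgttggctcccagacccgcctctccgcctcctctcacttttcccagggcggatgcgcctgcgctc
EZH1: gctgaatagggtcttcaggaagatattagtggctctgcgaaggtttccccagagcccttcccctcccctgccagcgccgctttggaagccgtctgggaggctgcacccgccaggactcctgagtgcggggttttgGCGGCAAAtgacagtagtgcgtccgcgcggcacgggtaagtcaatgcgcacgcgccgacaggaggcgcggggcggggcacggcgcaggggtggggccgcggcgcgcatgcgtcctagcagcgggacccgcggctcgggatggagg
PBRM1: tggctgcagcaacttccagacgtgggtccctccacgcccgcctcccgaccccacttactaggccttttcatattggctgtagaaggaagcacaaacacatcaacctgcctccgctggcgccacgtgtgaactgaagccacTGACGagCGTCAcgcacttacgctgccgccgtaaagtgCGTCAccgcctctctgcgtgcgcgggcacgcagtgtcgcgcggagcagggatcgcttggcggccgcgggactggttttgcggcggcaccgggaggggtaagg

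Counting the start site as 1 with no position 0, the E2F letters begin at 2 in EZH2, -189 in SUZ12, -80 in RBBP7 and -115 in EZH1. They were found in the windows of 7 of the 37 members with a RefSeq window: EZH2, SUZ12, RBBP7, EZH1, BCL7B, BRD7 and SMARCD1. Of the 7, 4 fell with knockdown, 1 rose and 2 were not called. By window, 12.1% of the 58 windows of members held them, against 6.89% of 35116 windows of all genes. The short site TGACG was in 32.8% of the members' windows and 24.6% of all. By gene it was in 7 of 8 members with a window that fell, 3 of 7 that rose and 9 of 22 not called. The difference between these shares was not tested, and no share by gene over all genes is given beside them. A gene with more than 1 window has more than 1 chance of a match. The shares by gene therefore cannot be set against the 24.6% of windows and are not read as a result about the members. The TGACG match of EZH2 lies in its other window, which is not shown. PBRM1, which rose, carried TGACG 3 times between -110 and -68. The full element TGACGTCA, which contains the short site, was in 1.72% of the members' windows and 1.85% of all, its only member being JARID2, with 2 matches. The AP1 letters TGANTCA were in 3.45% of the members' windows, those of SMARCA2 and SMARCB1, and in 7.71% of all. These are letter matches in windows of 300 bases and say nothing of binding.

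Of the 11 PRC1 genes, RING1 rose, CBX6 fell and 9 were not called. RNF2, the main ubiquitin ligase, measured 38.2 and 37.8 CPM in control, 44.1 and 42.4 with siEA1-1, and 48.5 and 43.1 with siEA1-2. All knockdown libraries were slightly above control, but the difference was not called (log2FC -0.23 ± 0.11, edgeR adjusted p = 0.121). RING1, its paralog, measured 26.3 and 27.1 CPM in control, 36.6 and 36.5 with siEA1-1, and 36.1 and 31.8 with siEA1-2. The knockdown libraries were all above control and the gene was called (log2FC -0.40 ± 0.13, edgeR adjusted p = 0.0226). The call was kept in 6 of 12 other settings. Leaving out either control library, either siEA1-1 library or siEA1-2 replicate 1 gave edgeR adjusted p values of 0.0572 to 0.118, and DESeq2 gave 0.112. BMI1, which pairs with the ligase and stimulates it, measured 55.7 and 54.9 CPM in control, 53.2 and 54.1 with siEA1-1, and 59.9 and 66.8 with siEA1-2. The conditions did not overlap, siEA1-1 being just below control and siEA1-2 above it. The difference was not called for the siRNAs averaged (log2FC -0.08 ± 0.10, edgeR adjusted p = 0.562; 95% interval -0.29 to 0.14), for siEA1-1 (edgeR adjusted p = 0.79), for siEA1-2 (0.198) or between the siRNAs (0.31). Its paralog PCGF2 was not called (log2FC 0.07), and the BMI1 to PCGF2 ratio per kilobase was 1.09 and 1.05 in control and 1.09 to 1.25 in knockdown, nearly touching.

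The CBX subunits read the PRC2 mark and the PHC subunits cluster PRC1 through their SAM domains. CBX6 measured 114 and 102 CPM in control, 94.2 and 84.6 with siEA1-1, and 92.0 and 90.6 with siEA1-2. Both control libraries were above the knockdown libraries (log2FC 0.25 ± 0.09, edgeR adjusted p = 0.0435). This call also held in only 6 of 12 other settings: it was lost without siNeg1 replicate 1 (log2FC 0.17, edgeR adjusted p = 0.346), without siEA1-1 replicate 1 or 2 (0.0548 and 0.109), in DESeq2 (0.106), with the knockdown libraries pooled (0.0768) and with no filter on low counts (0.0539). CBX2, CBX7 and CBX8 were not called, with log2FC of 0.39, 0.17 and -0.30 and wide intervals. PHC1, PHC2 and PHC3 were not called at 0.14, -0.29 and 0.05. Leaving out siEA1-2 replicate 2 brought CBX2 (log2FC 0.59, edgeR adjusted p = 0.00954) and PHC2 (-0.40, 0.00268) past the threshold, and both genes were far apart between the siEA1-2 replicates, at 15.3 and 23.3 CPM for CBX2 and 157 and 103 CPM for PHC2.

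Neither ATPase of BAF was called, nor was the core subunit SMARCB1. SMARCA4 measured 193 and 205 CPM in control, 184 and 208 with siEA1-1, and 216 and 200 with siEA1-2. SMARCA2 measured 111 and 111 CPM in control, 110 and 110 with siEA1-1, and 118 and 127 with siEA1-2. SMARCB1, a core subunit that anchors the complex to the nucleosome, measured 72.0 and 79.8 CPM in control, 73.6 and 73.3 with siEA1-1, and 81.2 and 82.2 with siEA1-2. The libraries of the conditions overlapped for SMARCA4. In SMARCA2 both siEA1-1 libraries lay just below control and both siEA1-2 libraries above it, and in SMARCB1 both siEA1-2 libraries lay above the other 4. Neither gene was called with siEA1-2 alone (edgeR adjusted p = 0.298 and 0.471) or between the siRNAs (0.476 and 0.525). Averaged over the siRNAs, the log2FC of SMARCA4, SMARCA2 and SMARCB1 was -0.02 (95% interval -0.21 to 0.18), -0.06 (-0.25 to 0.12) and -0.03 (-0.23 to 0.17), so that these intervals bound each averaged difference to at most 0.25 on the log2 scale. The ratio of SMARCA4 to SMARCA2 per kilobase was 1.62 to 1.94 over the 6 libraries, with control inside the range of knockdown. Of the exonic bases of SMARCB1, 56.3% overlap DERL3 on the opposite strand, and although the library kit marks strand, whether counting used it is not given in the sources used here.

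SMARCC1, a scaffold of the core, fell a little. It measured 134 and 137 CPM in control, 104 and 112 with siEA1-1, and 106 and 116 with siEA1-2. Both control libraries were above the rest (log2FC 0.31 ± 0.09, edgeR adjusted p = 0.0122). The call was lost without either control library (edgeR adjusted p = 0.0669 and 0.0692) or without siEA1-1 replicate 1 (0.0523). Its paralog SMARCC2 was not called at -0.10, and the SMARCC1 to SMARCC2 ratio per kilobase was 1.09 and 1.22 in control and 0.758 to 0.959 in knockdown. SMARCD1, SMARCD2, SMARCD3 and SMARCE1, the other core subunits, were not called, at log2FC between -0.15 and 0.15. ACTL6A, the actin-like subunit of BAF in proliferating cells, which the INO80 and TIP60 complexes also contain, measured 49.9 and 46.7 CPM in control, 30.8 and 28.9 with siEA1-1, and 39.8 and 36.1 with siEA1-2. All knockdown libraries were below control, those of siEA1-1 furthest (log2FC 0.52 ± 0.11, edgeR adjusted p = 0.00276).

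Of the subunits that mark the canonical form, ARID1B rose and ARID1A was not called, a contrast that was not itself tested. ARID1A measured 111 and 133 CPM in control, 109 and 111 with siEA1-1, and 112 and 111 with siEA1-2. The second control library was the highest and the other 5 were nearly equal, and no difference was called (log2FC 0.14 ± 0.09, edgeR adjusted p = 0.256). ARID1B measured 261 and 299 CPM in control, 390 and 396 with siEA1-1, and 417 and 425 with siEA1-2. All knockdown libraries were above both control libraries (log2FC -0.54 ± 0.09, edgeR adjusted p = 0.000564). The ratio of ARID1A to ARID1B per kilobase was 0.512 and 0.533 in control and 0.312 to 0.337 in knockdown, so ARID1B was the more abundant of the pair in every library.

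The DPF subunits read modified histone H3 tails. DPF3 (chr14:72609034-72894101, minus strand) had the largest fold of all members, at low counts: 6 and 8 counts in the control libraries, 31 and 23 with siEA1-1 and 35 and 42 with siEA1-2. In CPM it measured 0.896 and 1.03 CPM in control, 4.40 and 3.78 with siEA1-1, and 6.22 and 5.88 with siEA1-2. Every knockdown library was above control, 5.08-fold in the fit (log2FC -2.34 ± 0.39, edgeR adjusted p = 0.000527). It was the least abundant member per kilobase in control, and it could not be tested where 10 counts were required in every library. DPF2, the form found in most cells, was not called at log2FC 0.01 (95% interval -0.20 to 0.22), and DPF1 was not called at -0.54 with an interval of -1.62 to 0.53.

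SS18 and its paralog SS18L1 occupy the same site in the canonical and non-canonical forms, and both rose. SS18 measured 121 and 126 CPM in control, 174 and 168 with siEA1-1, and 177 and 178 with siEA1-2. The 4 knockdown libraries were above control (log2FC -0.49 ± 0.08, edgeR adjusted p = 0.000604). SS18L1 measured 31.1 and 33.1 CPM in control, 48.5 and 42.9 with siEA1-1, and 62.0 and 58.6 with siEA1-2. Control was lowest, siEA1-1 between and siEA1-2 highest (log2FC -0.71 ± 0.11, edgeR adjusted p = 0.000352). BRD9, the bromodomain subunit of the non-canonical form, fell. It measured 57.9 and 58.7 CPM in control, 44.7 and 40.3 with siEA1-1, and 35.5 and 36.6 with siEA1-2. All knockdown libraries were below control (log2FC 0.58 ± 0.10, edgeR adjusted p = 0.000799). BCL7A, BCL7B and BCL7C, small subunits of all forms, were not called, at -0.19, 0.23 and -0.22.

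In the PBAF form, PBRM1 rose while PHF10 and BRD7 fell. PBRM1 (chr3:52545352-52685917, minus strand), a subunit with a row of bromodomains, measured 142 and 162 CPM in control, 229 and 217 with siEA1-1, and 344 and 290 with siEA1-2. Each condition lay apart from the others, with siEA1-2 the highest (log2FC -0.80 ± 0.10, edgeR adjusted p = 7.25e-05). PHF10 measured 99.3 and 101 CPM in control, 59.0 and 64.9 with siEA1-1, and 77.1 and 69.9 with siEA1-2. The knockdown libraries were all lower (log2FC 0.57 ± 0.09, edgeR adjusted p = 0.000376). BRD7 measured 44.7 and 41.4 CPM in control, 35.2 and 25.8 with siEA1-1, and 34.3 and 33.9 with siEA1-2. All knockdown libraries were lower, and the 2 of siEA1-1 differed from each other the most (log2FC 0.41 ± 0.14, edgeR adjusted p = 0.0285). The BRD7 call was lost without siNeg1 replicate 1 or 2 (edgeR adjusted p = 0.162 and 0.0604), without siEA1-1 replicate 2 (0.0744) and in DESeq2 (0.0682), and 40.2% of its exonic bases overlap ADCY7 on the opposite strand. ARID2, which defines PBAF together with PBRM1, was not called (log2FC -0.16 ± 0.09, edgeR adjusted p = 0.183; 95% interval -0.35 to 0.04). The PBRM1 to ARID2 ratio per kilobase was 1.59 and 1.63 in control, 2.22 and 2.00 with siEA1-1, and 3.33 and 2.72 with siEA1-2.

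**Figure D2:**
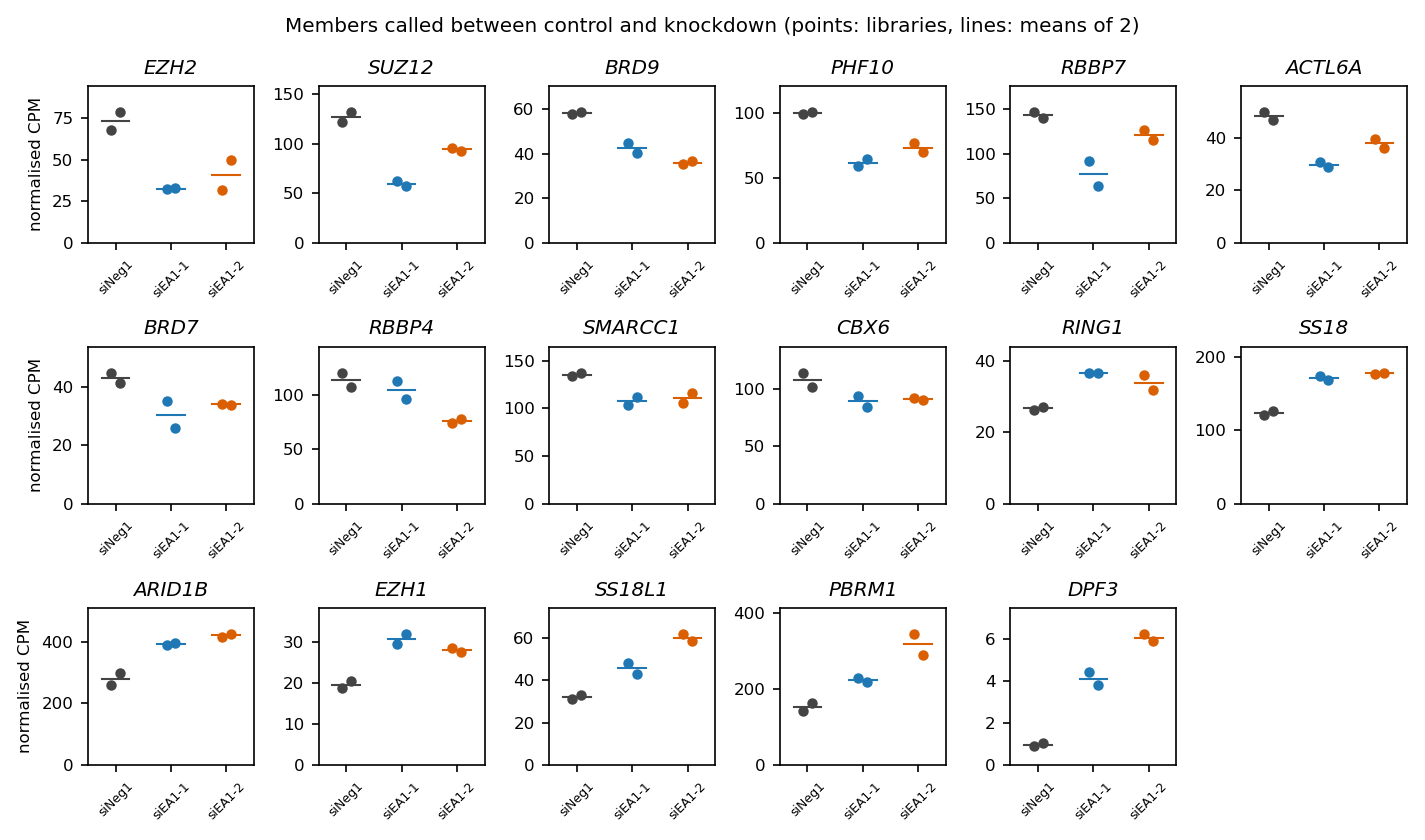
Normalised CPM of the 17 members called between control and knockdown, 1 panel a gene with its own axis from 0. Points are libraries and lines are means of 2, for siNeg1, siEA1-1 and siEA1-2 from left to right. In EZH2 the control libraries sit at 67.8 and 78.7 above all others, and in PBRM1 the siEA1-2 libraries sit highest at 344 and 290.

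**Figure D3:**
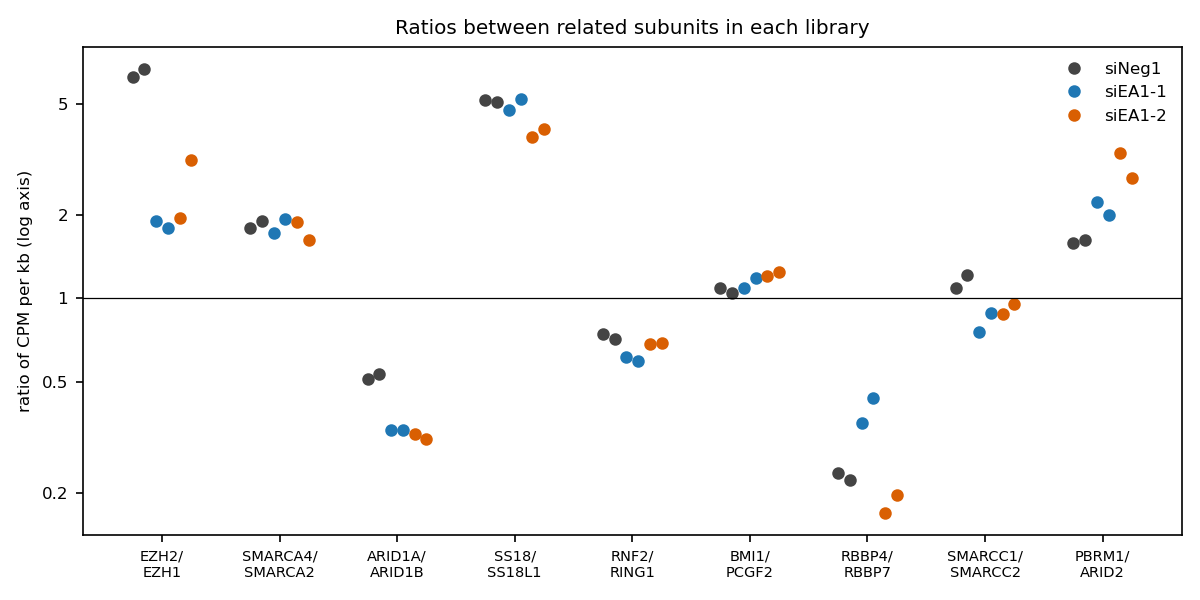
Ratio of the levels per kilobase of 9 pairs of related subunits in each of the 6 libraries, on a log axis with a line at 1. Points are libraries coloured by condition. The EZH2 to EZH1 ratio is 6.29 and 6.70 in control and at most 3.16 in knockdown, whereas the SMARCA4 to SMARCA2 ratio overlaps between conditions.

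The members differed widely in their level. Per kilobase in the control libraries, RBBP7 was the most abundant at 62.9 ± 2.40 CPM per kb (SD, n = 2), followed by PHF10 at 46.1 ± 0.443, SMARCD2 at 38.9 ± 0.412, SS18 at 36.4 ± 1.11 and SMARCA4 at 35.7 ± 1.57. RBBP7 and PHF10 stand apart beyond their spread, but SS18 and SMARCA4 do not differ beyond theirs. BCL7C followed at 32.7 ± 2.63, then SUZ12 and EZH2 at 28.2 ± 1.57 and 27.6 ± 2.91, the latter pair within their spread of each other, while EED was at 7.33 ± 0.555. At the low end were EZH1 at 4.25 ± 0.260, CBX8 at 2.46 ± 0.967, CBX7 at 1.92 ± 0.553, DPF1 at 0.483 ± 0.0519 and DPF3 at 0.0842 ± 0.00805. These values divide counts by the length of 1 annotated transcript a gene and shift where another transcript is used.

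Summed per kilobase, the BAF genes gave 476 and 501 in control, 494 and 489 with siEA1-1, and 543 and 518 with siEA1-2, and control overlapped siEA1-1. The PRC2 genes gave 156 and 157 in control, 104 and 88.3 with siEA1-1, and 126 and 124 with siEA1-2, so that control lay above all knockdown libraries. The PRC1 genes gave 126 and 131 in control, 133 and 128 with siEA1-1, and 146 and 136 with siEA1-2, and control overlapped siEA1-1. These sums are descriptions weighted by the abundant members, RBBP7 above all.

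**Figure D4:**
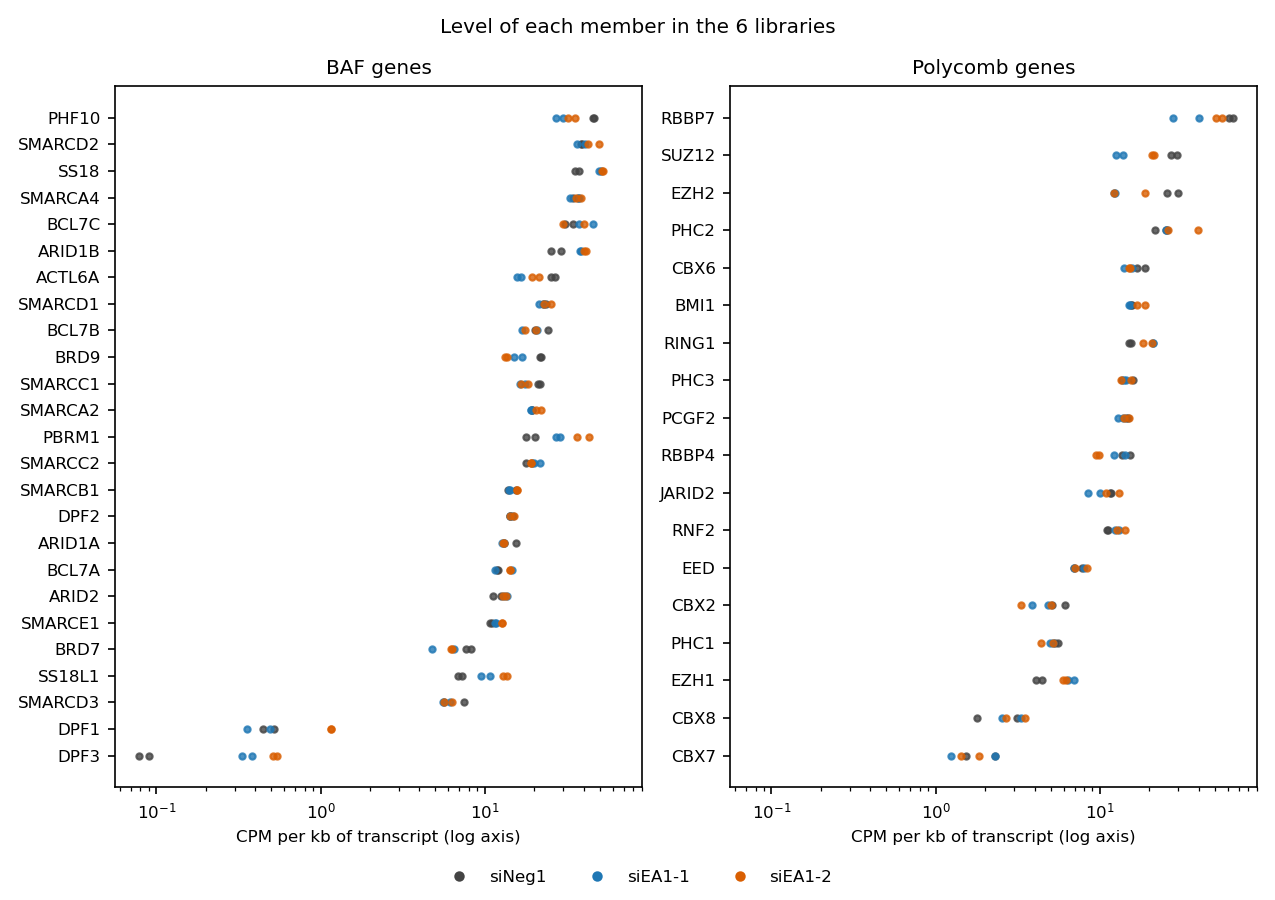
Level of each of the 43 members in the 6 libraries, in CPM per kilobase of transcript on a log axis, BAF genes on the left and Polycomb genes on the right, ordered by the mean of control. Points are libraries coloured by condition. RBBP7 leads the Polycomb genes at 62.9 in control and DPF3 ends the BAF genes at 0.0842.

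Each EA1 siRNA was next set against the same 2 control libraries, so the values are given side by side without a test of their likeness. With siEA1-1, 5 BAF genes fell and 5 rose, and 3 Polycomb genes fell and 2 rose, beside 20.3% of all genes higher and 19.9% lower in control. With siEA1-2, 3 BAF genes fell and 5 rose, and 3 Polycomb genes fell and 2 rose, beside 18.2% and 18.5% of all genes. Of the members called with both, EZH2 had a log2FC of 1.17 with siEA1-1 and 0.83 with siEA1-2, SUZ12 1.09 and 0.43, and EZH1 -0.65 and -0.51. Of the BAF genes that fell with both, PHF10 was at 0.69 and 0.45, BRD9 at 0.46 and 0.69, and SMARCC1 at 0.33 and 0.29. Those that rose with both were SS18 at -0.46 and -0.52, SS18L1 at -0.51 and -0.91, ARID1B at -0.49 and -0.59, PBRM1 at -0.55 and -1.06, and DPF3 at -2.07 and -2.62. CBX6 was called with neither alone, at 0.27 and 0.24. RBBP7 (0.88), ACTL6A (0.69), BRD7 (0.49) and RING1 (-0.45) were called with siEA1-1 alone, at 0.24, 0.35, 0.34 and -0.34 with siEA1-2. RBBP4 (0.58) and PHC2 (-0.46) were called with siEA1-2 alone, at 0.12 and -0.11 with siEA1-1. With the replicate number as a block, JARID2 (log2FC 0.33, edgeR adjusted p = 0.0289) and CBX6 (0.27, 0.0407) were also called with siEA1-1, and ACTL6A (0.35, 0.0373) with siEA1-2.

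The BAF genes that fell with siEA1-1 numbered 3 without either control library and 2 without siEA1-1 replicate 2, and the Polycomb genes 5 without either siEA1-2 library. Of the 15 members called with siEA1-1, 8 were called in every other setting, and of the 13 called with siEA1-2, 10 were. With siEA1-1, edgeR's call was lost for SS18L1 without siNeg1 replicate 1 or siEA1-1 replicate 1 (adjusted p = 0.0585 and 0.0874), for ARID1B without siNeg1 replicate 1 (0.0509), for BRD9 and EZH1 without siEA1-1 replicate 2 (0.0897 and 0.0590), for BRD7 without either control library or siEA1-1 replicate 2 (0.0560 to 0.231), and for SMARCC1 and RING1 without any 1 of the 4 libraries compared (0.0524 to 0.161 and 0.101 to 0.117). With siEA1-2, SMARCC1 was lost in 7 of 11 settings and EZH1 in 6, each with adjusted p of at most 0.133 in edgeR or DESeq2. PHC2 with siEA1-2 was lost in 7 of 11 settings and rested most on siEA1-2 replicate 1, without which log2FC was -0.12 and edgeR's adjusted p 0.554.

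**Figure D5:**
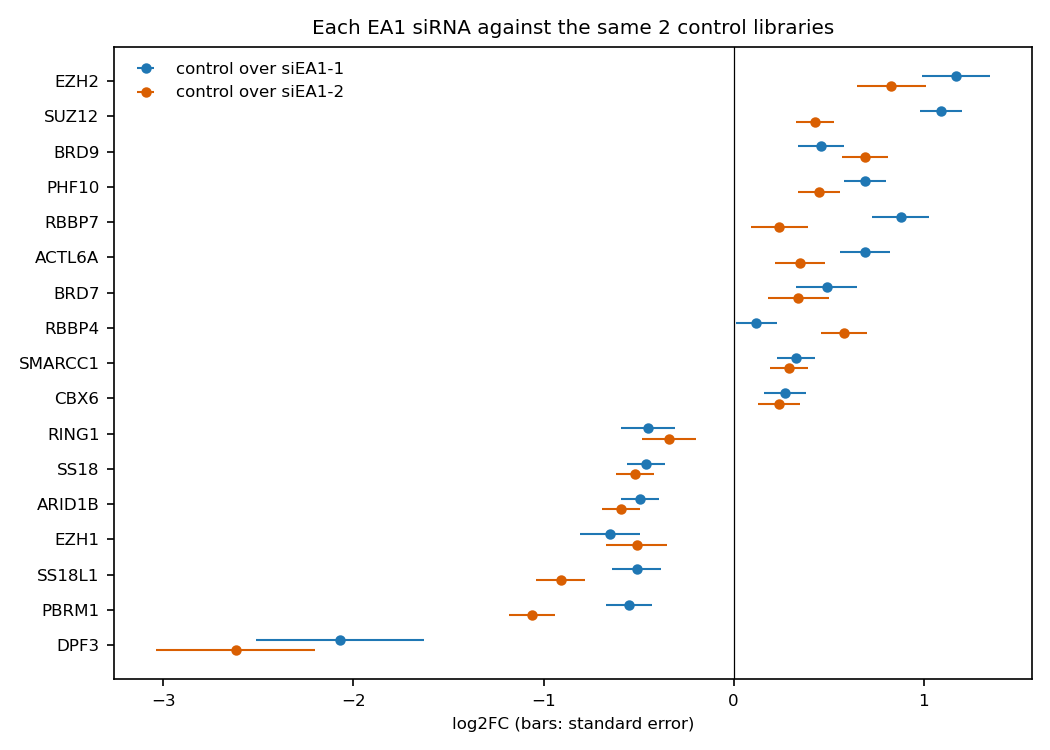
log2FC of the 17 called members with siEA1-1 and with siEA1-2, each against the same 2 control libraries, positive where control was higher. Points are log2FC and bars are standard errors. SUZ12 is at 1.09 with siEA1-1 and 0.43 with siEA1-2, and PBRM1 at -0.55 and -1.06, while RBBP4 is near 0 with siEA1-1.

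The EA1 siRNAs were then compared with each other, which leaves the control libraries out of the means. SUZ12 was lower with siEA1-1 than with siEA1-2 (log2FC -0.66 ± 0.11, edgeR adjusted p = 0.0117), and so was PBRM1 (-0.51 ± 0.11, 0.0455). In both genes every siEA1-1 library was below every siEA1-2 library, as the values above show. These were 1 of 25 BAF and 1 of 18 Polycomb genes, and none was higher with siEA1-1, beside 1.44% of all genes lower and 0.796% higher. At an unadjusted p under 0.05, edgeR gave 6 BAF and 4 Polycomb genes. No share of all genes at that unadjusted threshold is given, so these counts are not read as a result about the members. At an adjusted p under 0.05, DESeq2 called 1 BAF and 2 Polycomb genes. The PBRM1 call was lost in edgeR when any library but siEA1-2 replicate 2 was left out (adjusted p = 0.0677 to 0.369), and that of SUZ12 without siEA1-1 replicate 1 (0.0600) or 2 (0.208). RBBP7 just missed the threshold (log2FC -0.64 ± 0.15, edgeR adjusted p = 0.052) but was called in 7 of 11 other settings, DESeq2 among them (adjusted p = 0.00689), and without siEA1-1 replicate 2 its log2FC was -0.40 (edgeR adjusted p = 0.396). RBBP4 had the opposite sign (log2FC 0.45 ± 0.12, edgeR adjusted p = 0.0713). With the replicate block both were called in edgeR, RBBP7 at adjusted p = 0.00529 and RBBP4 at 0.0263, and RBBP4 was also called without siEA1-2 replicate 2 (0.0471). EZH2 was not called between the siRNAs (log2FC -0.34 ± 0.19, edgeR adjusted p = 0.4), but without siEA1-2 replicate 1 it was (-0.62, edgeR adjusted p = 0.0300). PHC2 was likewise not called (-0.35, edgeR adjusted p = 0.319) except without siEA1-2 replicate 2 (-0.61, edgeR adjusted p = 0.00726). In the division list, 4 of 16 genes were also lower with siEA1-1, and its summed level in each siRNA is given above.

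The other subunits of both families were taken from a list of named subunits. Of 6 other BAF genes, 4 were tested and 1 was called, BCL11A, a subunit and transcription factor, which fell (log2FC 0.88 ± 0.10, edgeR adjusted p = 3.06e-05). Of 28 other Polycomb genes, 25 were tested, 5 fell and 1 rose, beside 22.1% of all genes that fell and 21.5% that rose. PCGF6 (0.93 ± 0.19), of variant PRC1, SCML2 (0.71 ± 0.23), an SCM protein associated with PRC1, and AEBP2 (0.93 ± 0.10), an accessory subunit of PRC2, fell. BAP1, the deubiquitinase that removes the PRC1 mark, rose (-0.43 ± 0.10). Their medians were -0.08 for the other BAF genes and 0.04 for the other Polycomb genes, beside -0.01 over all genes tested.

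Counting can blur some members. Annotated pseudogenes are named for 11 members, with 7 each for SMARCE1, BRD7 and RBBP4 and 1 each for EZH2, SUZ12, EED and RNF2, and how reads shared with them were assigned is not given in the sources used here. Canonical exons of 21 members overlap another gene. On the opposite strand, the overlap is 64.65% of PCGF2 with CISD3 and 31.78% of SMARCD3 with CHPF2. It is 33.36% of DPF2 and 31.89% of CBX7 with annotated genes without a symbol. RBBP4 shares 27.4% with SYNC and PHF10 22.4% with C6orf120, while SMARCB1 and BRD7 are given above. On the same strand, the overlap is 51.48% of SMARCE1 with an annotated gene without a symbol and 28.25% of BMI1 with the readthrough gene COMMD3-BMI1. The remaining overlaps are smaller and are not listed. Values of the genes with an overlap are uncertain to that extent.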

How the data were processed

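Per the labels and the paper's methods, polyadenylated RNA of 6 SU-CCS-1 libraries, made with a kit that keeps strand (TruSeq Stranded mRNA), was sequenced, and the authors mapped reads to hg38 by BWA-MEM, an aligner without a splicing model, and counted them per gene by featureCounts 1.6.3. The deposited counts are whole numbers without normalization or pooling. The annotation, whether counting used strand and the treatment of shared reads are not given in the sources used here. The methods name 1 siRNA against EA1, whereas the labels list 2, and conditions follow the labels.

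From these counts edgeR 4.0.16 (R 4.3.3) was run with filterByExpr (minimum count 10, total 15), TMM factors and quasi-likelihood tests on 3 conditions, with Benjamini-Hochberg adjustment over 14571 genes and calls at 0.05. Standard errors come from the F statistic. Deviations of same-numbered replicates correlated at 0.130, 0.199 and 0.144 for the 3 pairs of conditions, the numbers coming from the sample titles, so blocked values are given where they change a call. Lengths, coordinates and overlaps are from GENCODE release 44, promoters from RefSeq, found for 37 of 43 members.

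Members and lists were chosen with earlier results of these data known. Values per library are given for called members and 10 core subunits, and at most the 4 called genes of largest change are named from each other list.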

Additional observations from a re-analysis of the deposited data

Results flagged for a closer look

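SUZ12 and PBRM1 differed between the EA1 siRNAs when these were tested against each other. SUZ12 was lower with siEA1-1, at log2FC -0.66, with 62.4 and 56.9 CPM against 96.1 and 92.6 CPM with siEA1-2. PBRM1 was lower with siEA1-1, at log2FC -0.51, with 229 and 217 CPM against 344 and 290 CPM. In SUZ12 the larger difference from control was with siEA1-1 and in PBRM1 with siEA1-2. The reason for either difference was not tested.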

How the results depend on the processing

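Of the 17 members called between control and knockdown, 11 were called in every setting tried: no low-count filter, a stricter filter of 10 counts in each library (which left out DPF3), RLE size factors, DESeq2, the replicate block, the knockdown libraries as 1 condition, and each library left out in turn. The other 6 are named with their values in the report. Pooling the knockdown libraries left 2 Polycomb genes that fell in place of 5. Polycomb genes that rose numbered 1 in DESeq2 in place of 2, also with siEA1-1, while with siEA1-2 RLE size factors left 1 and DESeq2 0. Between the siRNAs, 2 Polycomb genes in place of 1 were lower with siEA1-1 with no filter, with at least 10 counts, with RLE size factors, with DESeq2 and with the replicate block. Under the replicate block, 5 Polycomb genes in place of 3 fell with siEA1-1, and between the siRNAs 1 in place of 0 was higher with siEA1-1. Over all genes, the block called 323 higher and 530 lower with siEA1-1 in place of 116 and 210, and DESeq2 called 330 lower. The block changed no other call of a member beside those given in the report.

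With 1 library left out, the lone library of that condition is assumed to vary like the others. The genes that fell in control against knockdown then numbered 3 to 5 of BAF and 3 to 6 of Polycomb, and 1 to 3 of Polycomb rose. With siEA1-1, 2 to 5 BAF genes fell and 3 to 5 rose, and 3 to 5 Polycomb genes fell and 0 to 2 rose. With siEA1-2, 0 to 1 Polycomb genes rose, EZH1 being called only without siEA1-1 replicate 1 and PHC2 only without siEA1-2 replicate 2. Between the siRNAs, 0 to 1 BAF and 0 to 3 Polycomb genes were lower with siEA1-1, and 0 to 1 Polycomb genes higher. Over all genes, those lower in control ranged from 2030 to 3146 for both siRNAs, 1892 to 3075 for siEA1-1 and 1767 to 2543 for siEA1-2. Those higher in control ranged from 2450 to 3640, 2103 to 3428 and 1955 to 2786, in the same order. Between the siRNAs, 13 to 317 genes were higher and 20 to 471 lower with siEA1-1, the fewest without siEA1-1 replicate 2 and the most without siEA1-2 replicate 2. Over all settings, the uncalled members whose log2FC of control against knockdown took both signs were SMARCA4 (-0.06 to 0.05), SMARCB1 (-0.07 to 0.04), SMARCD1 (-0.02 to 0.07), SMARCD3 (-0.03 to 0.34), EED (-0.12 to 0.07), CBX7 (-0.14 to 0.43), CBX8 (-0.75 to 0.10) and PHC3 (-0.03 to 0.15). DPF1, DPF3, CBX7 and CBX8, at the lowest levels per kilobase, had the widest intervals. The cause of these shifts was not tested.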

Other observations

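Other chromatin regulators were read from lists of the same kind. The counts in each list stand beside 22.1% of all genes tested that fell and 21.5% that rose, and no list was tested against them. The 14 Trithorax and COMPASS genes encode histone methyltransferases, their core subunits and demethylases of the PRC2 mark. Of these genes, 3 fell and 3 rose with knockdown, with a median log2FC of -0.11. KDM6B, a demethylase of the PRC2 mark, rose (log2FC -0.97 ± 0.17, edgeR adjusted p = 0.000692), as did ASH2L (-0.37 ± 0.09). RBBP5 (0.60 ± 0.11) and MEN1 (0.38 ± 0.11) fell. KDM6B averaged 24.0 CPM in control, 41.9 with siEA1-1 and 53.1 with siEA1-2.

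Of 31 genes of other remodelers and of chromatin assembly, 10 fell and 5 rose, with a median of 0.04. The largest falls were those of CHAF1B (2.00 ± 0.10) and CHAF1A (1.51 ± 0.12), subunits of the chromatin assembly factor that works at replication forks and includes RBBP4. BAZ1A (0.77 ± 0.09) and CHD1 (0.70 ± 0.09) fell less. CHAF1B averaged 138 CPM in control, 30.9 with siEA1-1 and 38.3 with siEA1-2, and the division list fell in the same libraries. Its part was not tested.

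Of 39 HOX genes, classical targets of Polycomb, 16 were tested, 1 fell and 1 rose. HOXC10 fell (0.47 ± 0.13, edgeR adjusted p = 0.0135). HOXC5 rose from 0 and 2 counts in control to 9 and 13 with siEA1-1 and 9 and 3 with siEA1-2, so near the floor that no fold is given. The median over the 16 was 0.02. Many of them had low counts and wide 95% intervals of log2FC, such as HOXB4 (-0.97 to 1.43) and HOXD4 (-1.26 to 1.64). That of HOXB7 was narrower (-0.36 to 0.35). The median and the few calls therefore do not show that HOX genes were unchanged.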
